A study of Mus musculus with 43 samples.

Results

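Homeostatic microglia genes are the genes that resting microglia of the brain and retina express at high levels and that are used to recognize them in tissue. Of the 54532 mouse genes in the count table, 9 were taken by their gene symbol: *P2ry12*, *P2ry13*, *Gpr34*, *Cx3cr1*, *Csf1r*, *Siglech*, *Tmem119*, *Olfml3* and *Aif1*. All 9 were found, each as a single row, and all 9 were among the 18197 genes with enough counts to be tested. The RNA came from retinas of C57BL/6J mice that had received a laser lesion at 9 weeks of age to induce choroidal neovascularization (CNV), the growth of vessels from the choroid into the retina. Control (CTR) mice received the laser alone. SCFA mice also drank a mixture of short-chain fatty acids, given in the labels as 67.5 mM sodium acetate, 25 mM sodium butyrate and 40 mM sodium propionate, from 3 weeks before the laser until collection. For butyrate and propionate the labels also give a mass per litre that does not match the molar value, so these 2 doses are uncertain. Males and females were sampled 3, 7 or 14 days after the laser (dpl), which gave 12 groups of 3 to 5 libraries and 43 libraries in all. Each library was a pool of 2 retinas from different animals. Every group was lasered, so no library gives the level of these genes in an uninjured retina.

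Microglia are the resident macrophages of the retina. In the resting state they survey the tissue with fine processes, and after injury they gather at the lesion, change shape and usually lower part of their homeostatic program. Several of the 9 genes encode surface receptors. *Csf1r* is the receptor for the growth factors CSF1 and IL34, on which microglia depend for survival. *Cx3cr1* binds fractalkine from neurons, *P2ry12* and *P2ry13* bind ADP, and *Gpr34* is a receptor for lysophosphatidylserine. *Siglech* is a sialic acid binding lectin, *Tmem119* a membrane protein, *Olfml3* a secreted matrix protein, and *Aif1* encodes IBA1, the actin-binding protein stained to show microglia in tissue.

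The 9 genes were at low levels in these retinal libraries. Sums of listed genes, here and below, do not give the share of RNA from a cell type. The summed level of the 9 genes was 32.3 to 90.8 CPM (counts scaled to a common library size) per library, whereas 8 rod photoreceptor genes summed to 49856 to 101419 CPM. Every one of the 9 was counted in every library, with *Gpr34* giving the lowest count of 9 reads. Of 20 further microglial genes, all were tested and none was at 0 in any library. Lymphocyte genes summed to at most 0.898 CPM, and none of 8 passed the filter. The 11 listed monocyte genes summed to 39.0 to 102 CPM, and border macrophage genes to 13.8 to 29.2 CPM. Within the monocyte list, *Ly6c2* was at 0 in 30 libraries and *Ccr2* in 16. *Lyz2*, *Vcan* and *Itga4* were at 0 in no library, with medians of 10.5, 14.9 and 31.3 CPM. Library totals were between 14826957 and 21507527 counts. One library stood apart: female SCFA 3 dpl replicate 2 drew 24.9% of its counts from lens crystallin genes, against at most 0.0987% elsewhere. Another, labelled female control 7 dpl replicate 2, held Y-linked transcripts at 4.20 to 16.0 CPM, which were 0 in the other 21 female libraries. Where leaving out either library changed the call of a member or of a listed gene named here, that value is given beside the result.

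The sequence before the annotated start was available in RefSeq (GRCm38.p6) for 6 of the 9 genes, and not used here for *Csf1r*, *Tmem119* and *Gpr34*. The 250 bases upstream are shown for *Olfml3*, whose level differed between days, and for *P2ry12* and *Siglech*, which hold the letters searched. Capitals mark GGAAGT, a core bound by ETS factors such as PU.1, the lineage factor of macrophages, and CACGTG, an E-box, each searched on both strands. The windows are chr3:103738002-103738251 (minus strand), chr3:59262986-59263235 (minus strand) and chr7:55767934-55768183 (plus strand), written 5′ to 3′.
Olfml3: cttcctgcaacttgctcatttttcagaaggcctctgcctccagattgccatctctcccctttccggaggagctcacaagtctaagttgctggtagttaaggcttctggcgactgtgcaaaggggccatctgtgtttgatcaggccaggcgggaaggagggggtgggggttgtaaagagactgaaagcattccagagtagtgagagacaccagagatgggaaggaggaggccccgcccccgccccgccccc
P2ry12: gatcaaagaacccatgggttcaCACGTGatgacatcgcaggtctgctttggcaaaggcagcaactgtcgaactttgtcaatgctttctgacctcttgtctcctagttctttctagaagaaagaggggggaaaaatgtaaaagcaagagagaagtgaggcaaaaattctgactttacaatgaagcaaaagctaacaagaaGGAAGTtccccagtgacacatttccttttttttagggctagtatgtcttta
Siglech: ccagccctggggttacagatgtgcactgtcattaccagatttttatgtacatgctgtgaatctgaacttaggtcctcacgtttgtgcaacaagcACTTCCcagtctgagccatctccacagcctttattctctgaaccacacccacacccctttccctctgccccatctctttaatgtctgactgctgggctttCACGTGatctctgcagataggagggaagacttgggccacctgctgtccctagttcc
GGAAGT was found in 2 of the 6 windows, against 19.7% of 32851 windows of the same length. CACGTG was in the same 2 windows, *P2ry12* and *Siglech*, against 6.02% of all windows. Neither GAGGAAGT, in 2.44% of all windows, nor TATAAA, in 12.4%, was in any of the 6. These counts describe letters in short windows and do not show where a factor binds.

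The 9 genes spanned a range of levels. Per kilobase of exon, *Csf1r* was highest, with a median of 3.19 CPM per kb over the 43 libraries, followed by *Olfml3* at 2.02 and *Tmem119* at 1.43. *Cx3cr1* had 1.34 CPM per kb, *Aif1* 1.15, *P2ry12* 1.08, *Gpr34* 0.826, *Siglech* 0.658 and *P2ry13* 0.470. *Csf1r* exceeded *Olfml3* in 38 of 43 libraries, and *Olfml3* exceeded *Tmem119* in 41. The length was that of all exons annotated in GENCODE M21, merged for each gene, 6161 bases for *Olfml3* and 5774 for *Csf1r*. Levels per kb depend on it, and the annotation behind the counts was not given. Whether the order holds for other transcript lengths was not tested. Even on these lengths the order from *Tmem119* to *P2ry12* was not settled. *Tmem119* exceeded *Cx3cr1* in 23 libraries, *Cx3cr1* exceeded *Aif1* in 25, and *Aif1* exceeded *P2ry12* in 26. Without regard to length, median levels ran from 18.4 CPM for *Csf1r*, which was 331 counts, down to 1.19 CPM for *P2ry13*, which was 20 counts. The spread within groups exceeded counting error for each gene. Its coefficient of variation was 20.7% for *Csf1r* against 5.50% from counting alone, and 57.6% for *Aif1* against 18.0%. The difference between the runs of columns, given below and largest for *Aif1*, was not removed from this spread.

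**Figure D1:**
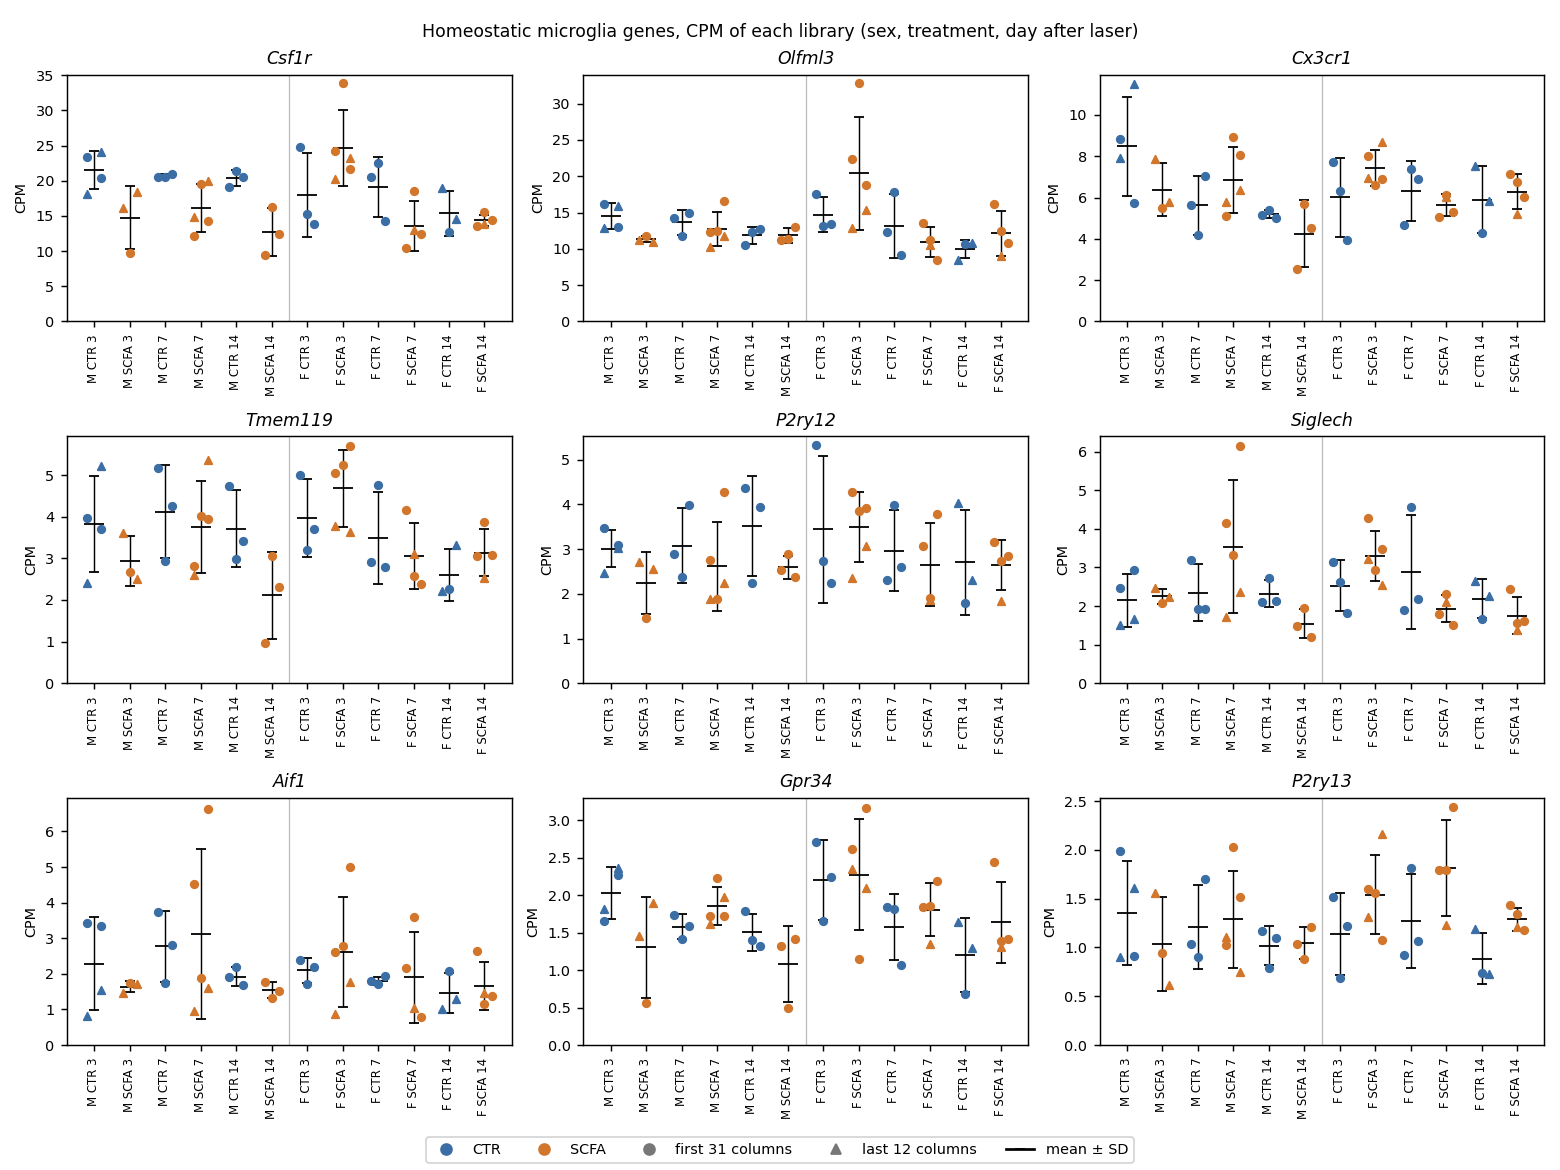
CPM of the 9 genes in each of the 43 libraries, by sex (M, F), treatment and day post laser; points are libraries (circles, first 31 columns of the table; triangles, last 12), bars the mean ± SD. *Csf1r* lay between 9.49 and 33.9 CPM, and in SCFA males at 7 and 14 dpl all its points lie below those of controls.

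Over the course of the injury, all 9 genes were lower at 14 dpl than at 3 dpl, and 1 of them, *Olfml3*, passed the test. Groups were compared with edgeR's quasi-likelihood test over all 43 libraries, with a gene called at a Benjamini-Hochberg adjusted p under 0.1. *Olfml3* was 10.9 to 32.8 CPM (median 13.5) in the 15 libraries of 3 dpl. At 7 dpl it was 8.52 to 17.8 CPM (median 12.3, n = 15), and at 14 dpl 8.50 to 16.2 CPM (median 11.2, n = 13). The days overlapped, and the highest library at 3 dpl was the lens-rich one. Averaged over the 4 arms of sex and treatment, *Olfml3* fell by 0.43 on the log2 scale from 3 to 14 dpl (SE 0.11, edgeR adjusted p = 0.031). Without the lens-rich library the difference was -0.37 (edgeR adjusted p = 0.044). Of all genes, 2.37% were called in this comparison and 1.63% were lower. In bulk RNA, fewer microglia and less of a transcript per cell cannot be told apart. The call for *Olfml3* was lost when the 2 runs of columns were not modelled (edgeR adjusted p = 0.21) and in the first run alone (adjusted p = 0.41), with differences of -0.38 and -0.42.

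The other 8 genes had log2 differences between -0.50 (*Aif1*) and -0.11 (*P2ry12*) from 3 to 14 dpl and did not pass. Of the 9, 7 had an unadjusted p under 0.05, as had 15.7% of all genes, and the median difference was -0.43 against 0.01 over all genes tested. The summed level of the 9 was 36.5 to 90.8 CPM (median 55.5, or 54.7 without the lens-rich library, which held the highest value) at 3 dpl, 39.3 to 66.4 (median 49.2) at 7 dpl and 32.3 to 52.1 (median 44.0) at 14 dpl. From 3 to 7 dpl none of the 9 was called by edgeR or DESeq2, and 1 had an unadjusted p under 0.05. Of all genes, 0.0055% were called and 6.02% had an unadjusted p under 0.05. From 7 to 14 dpl none was called by either tool and 3 had an unadjusted p under 0.05, with 0.0604% of all genes called and 10.3% under the unadjusted threshold. Without the library that held Y-linked transcripts, 0 of the 9 had an unadjusted p under 0.05 from 7 to 14 dpl.

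**Figure D2:**
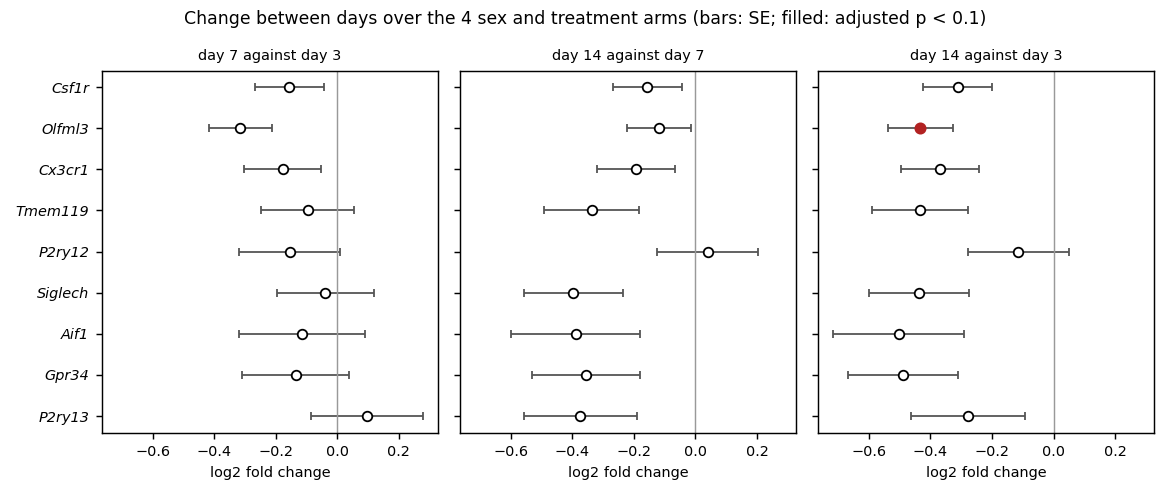
Log2 fold change of each gene between days, averaged over the 4 arms of sex and treatment, with SE; filled points have an edgeR adjusted p under 0.1. From 3 to 14 dpl all 9 points lie below 0, and *Olfml3* (-0.43) is the filled one.

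Other genes of the macrophage lineage also fell in this comparison. Of 18 genes that most macrophages express, 14 were called lower at 14 than at 3 dpl and none higher, with a median log2 difference of -0.71. Among these were the complement genes *C1qb* (-0.79, edgeR adjusted p = 4.2e-05) and *C1qc* (-0.70, adjusted p = 0.0011), and the Fc receptor genes *Fcer1g* (-0.93, adjusted p = 0.00032) and *Fcgr3* (-0.83, adjusted p = 0.0018). Of 20 further microglial genes, 6 were lower, with *Fcrls* showing the smallest adjusted p (-1.27, edgeR adjusted p = 4.2e-05). Of 17 tested genes of activated, disease-associated microglia, 5 were lower, including *Spp1* (-1.09) and the lectin gene *Lgals3* (-1.52). *Lgals3* had its highest level, 52.9 CPM, in the lens-rich library, against a median of 2.95 CPM, and its difference was -1.12 (edgeR adjusted p = 0.0013) without that library. The monocyte list held 2 called genes of 6 tested, *Lyz2* (-1.37), which many macrophages and activated microglia also express, and *Ccr2* (-4.26). Of 8 border macrophage genes 2 were called lower, *F13a1* (-1.26) and *Stab1* (-0.54). *Ccr2* had a median of 0.0556 CPM, so its fitted difference depends on very few counts. The summed monocyte list was 39.4 to 102 CPM at 3 dpl and 44.9 to 68.8 CPM at 14 dpl. With the lens-rich library left out, 13 of the 18 macrophage genes, 5 of the 20 microglial genes and 4 of the 17 activation genes were called lower. The monocyte and border macrophage counts stayed at 2 each, and 1.14% of all genes were called lower in that fit. The part of these cells in the results for the 9 genes was not tested.

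The genes that act with *Csf1r* and with the fractalkine and ADP receptors were counted in the same comparison. Of 11 genes around the CSF1 receptor, 3 were lower at 14 than at 3 dpl: the transcription factors *Irf8* (-0.71, edgeR adjusted p = 0.0088) and *Spi1*, which encodes PU.1 (-0.76, adjusted p = 0.074), and the Rac activator gene *Dock2* (-0.64, adjusted p = 0.0996). None of 8 tested fractalkine and purine genes was called by edgeR, *Cx3cl1* among them (0.16, adjusted p = 0.53). Of 13 genes of TGF-beta signalling, on which the homeostatic program depends, *Tgfb1* was called lower (-0.57, edgeR adjusted p = 0.075). *Dock2* (-0.55, adjusted p = 0.17) and *Tgfb1* (-0.45, adjusted p = 0.13) were no longer called without the lens-rich library.

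Within single arms, 3 of the 9 genes were called lower at 7 than at 3 dpl in SCFA females, where 17.5% of all genes were called. *Csf1r* was 24.2, 33.9, 21.6, 20.2 and 23.2 CPM in the 5 SCFA females of 3 dpl and 10.4, 18.5, 12.4 and 12.9 CPM in the 4 of 7 dpl. All libraries of 7 dpl lay below all those of 3 dpl. The share of all genes separated in this way between days was not computed, here or for 14 against 3 dpl. Such separations are given as a description. The log2 difference was -0.85 (SE 0.20, edgeR adjusted p = 0.0092) and, without the lens-rich library, -0.68 (adjusted p = 0.075). *Olfml3* was 22.3, 32.8, 18.9, 12.8 and 15.4 CPM at 3 dpl and 13.6, 11.2, 8.52 and 10.5 CPM at 7 dpl, so that the groups overlapped. It differed by -0.91 (SE 0.18, edgeR adjusted p = 0.0059), and by -0.70 (adjusted p = 0.054) without the lens-rich library. *Siglech* was 4.29, 2.95, 3.48, 3.22 and 2.55 CPM at 3 dpl and 1.79, 2.30, 1.52 and 2.11 CPM at 7 dpl, with no overlap. Its difference was -0.81 (SE 0.28, edgeR adjusted p = 0.057), and its call was lost without the lens-rich library (-0.88, adjusted p = 0.11).

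The same 3 genes were called lower in SCFA females at 14 than at 3 dpl, where 15.4% of all genes were called. All 9 differences were negative in this comparison, with a median of -0.58. *Csf1r* was 13.6, 15.5, 14.5 and 13.9 CPM in SCFA females at 14 dpl, below every library of 3 dpl, and differed by -0.77 (edgeR adjusted p = 0.018). Without the lens-rich library *Csf1r* was no longer called (-0.59, adjusted p = 0.12), whereas *Olfml3* (-0.56, adjusted p = 0.094) and *Siglech* (-1.04, adjusted p = 0.085) were. In SCFA males, *Siglech* was 4.15, 3.32, 6.15, 1.72 and 2.36 CPM at 7 dpl and 1.50, 1.94 and 1.21 CPM at 14 dpl. One library of 7 dpl lay within the range of 14 dpl. The log2 difference was -1.28 (SE 0.32, edgeR adjusted p = 0.062), in a comparison in which 1.4% of all genes were called. All 9 members were lower there (median -0.65), and DESeq2 called 2. An unadjusted p under 0.05 was seen for 5 of the 9, against 15.4% of all genes. From 3 to 7 dpl 8 of the 9 were lower in SCFA females (median -0.55). In SCFA males all 9 differences were positive, from 0.07 to 0.56 with a median of 0.26. None of the 9 was called in SCFA males by edgeR or DESeq2, and none had an unadjusted p under 0.05. Of all genes 0.011% were called there and 11% were under the unadjusted threshold. From 3 to 14 dpl 8 of the 9 were lower in SCFA males (median -0.18), with none called by either tool and 1 unadjusted p under 0.05, against 0% and 3.42% of all genes. In SCFA females from 7 to 14 dpl 5 of the 9 were lower, none was called by either tool or had an unadjusted p under 0.05, and the shares of all genes were 0% and 6.32%. In control males and control females no member was called between any 2 days by edgeR or DESeq2, with 0 to 2 of the 9 at an unadjusted p under 0.05. Most differences were negative in controls too. In control males 8 of the 9 were lower from 3 to 7, 7 to 14 and 3 to 14 dpl (medians -0.11, -0.11 and -0.38). In control females 5, 7 and 7 were lower (medians -0.16, -0.18 and -0.25). Without the library that held Y-linked transcripts, 9 were lower in control females from 3 to 7 dpl and 5 from 7 to 14 dpl. From 3 to 7, 7 to 14 and 3 to 14 dpl, 0.011%, 0% and 0.0055% of all genes were called in control males, and 7.42%, 5.31% and 11.2% had an unadjusted p under 0.05. In control females the shares were 0%, 0.0055% and 0% called and 2.63%, 10.8% and 6.02% unadjusted. Whether arms differed in their course was tested only as the change in the SCFA difference between days, given below. That test took the mean of males and females, so it does not test the course in either sex alone.

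One member, *Csf1r*, was lower with SCFA in the comparison averaged over both sexes and all days. *Csf1r* differed by -0.30 on the log2 scale (SE 0.09, 95% interval -0.48 to -0.12), a fold of 0.813, with an edgeR adjusted p of 0.013. *Csf1r* was 9.49 to 33.9 CPM (median 15.2) in 24 SCFA libraries and 12.7 to 24.9 CPM (median 20.5) in 19 control libraries, and the treatments overlapped. Of all genes, 34.7% were called in this comparison and 17% were lower, and a share of 1 in 9 lies below both. The call held in each of the 43 fits that left out 1 library, and without both doubted libraries (-0.32, edgeR adjusted p = 0.0069). The other 8 members differed by -0.19 to 0.22 and had adjusted p of 0.28 to 0.88.

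The mean of *Csf1r* was lower with SCFA in 5 of the 6 comparisons of sex and day, females at 3 dpl being the exception. In males at 7 dpl it was 20.6, 20.5 and 21.0 CPM in controls and 12.1, 19.5, 14.3, 14.8 and 19.9 CPM with SCFA. Every SCFA library lay below every control. In males at 14 dpl it was 19.1, 21.4 and 20.6 CPM in controls and 9.49, 16.3 and 12.5 CPM with SCFA, again with no overlap. The log2 difference in males was -0.39 (SE 0.21, edgeR adjusted p = 0.22) at 7 dpl and -0.67 (SE 0.24, adjusted p = 0.1003) at 14 dpl, so neither was called. At 14 dpl the value lies next to the threshold and DESeq2 called it (adjusted p = 0.069). The edgeR adjusted p was 0.079 for *Csf1r* without the lens-rich library and 0.081 without the library that held Y-linked transcripts. In females at 7 dpl *Csf1r* was 20.6, 22.5 and 14.3 CPM in controls and 10.4, 18.5, 12.4 and 12.9 CPM with SCFA. These groups overlapped, and the difference was -0.51 (edgeR adjusted p = 0.25). The control at 22.5 CPM was the library with Y-linked transcripts, without which *Csf1r* differed by -0.39 (adjusted p = 0.66). With both sexes together at 7 dpl it was -0.45 (SE 0.16, adjusted p = 0.036, 26.3% of all genes called), but without the female control with Y-linked transcripts, -0.39 (adjusted p = 0.103).

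**Figure D3:**
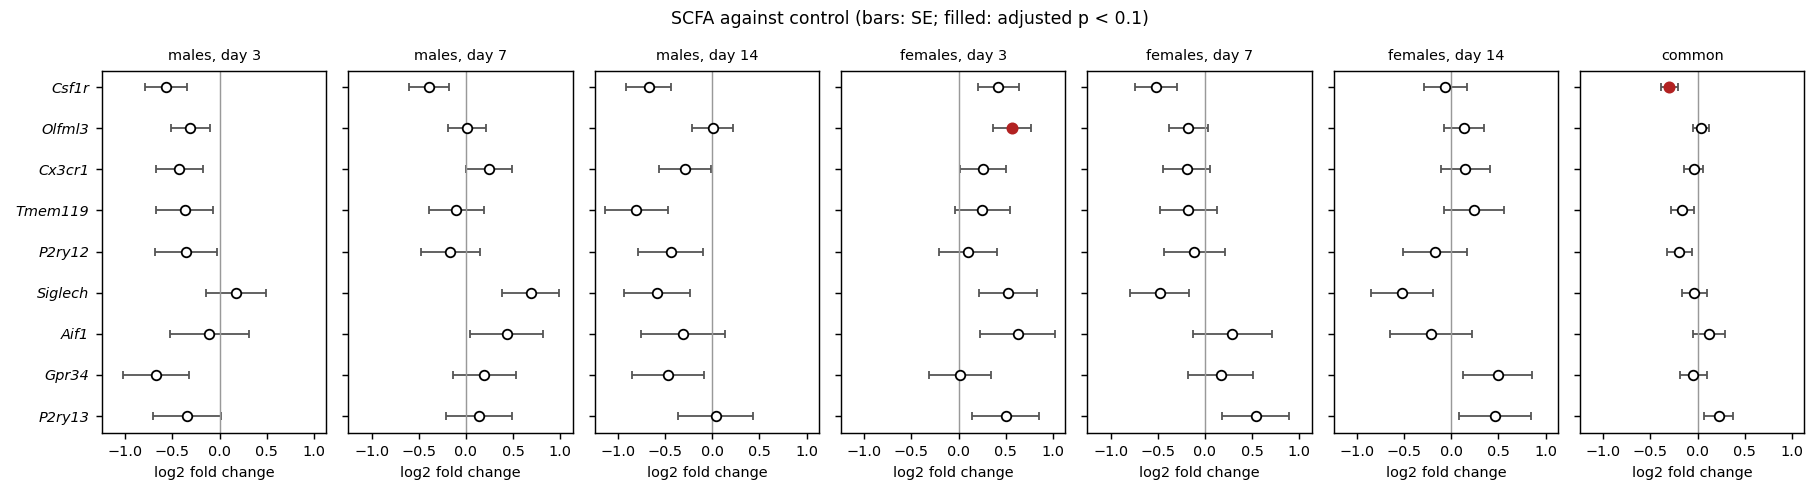
Log2 fold change of SCFA against control for each gene, in each sex and day and as the common effect, with SE; filled points have an edgeR adjusted p under 0.1. The filled points are *Olfml3* in females at 3 dpl (0.57) and *Csf1r* in the common effect (-0.30).

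Taken by sex and day, 1 of the 54 tests of the 9 genes was called. *Olfml3* was 17.5, 13.1 and 13.5 CPM in control females at 3 dpl and 22.3, 32.8, 18.9, 12.8 and 15.4 CPM with SCFA. The groups overlapped, and the highest value was that of the lens-rich library. The log2 difference was 0.57 (SE 0.20, edgeR adjusted p = 0.096), where 8.11% of all genes were called and 4.78% were higher. Without the lens-rich library it was 0.32 (SE 0.18, adjusted p = 0.42), and the call was lost in 24 of the 43 fits that left out 1 library. In that library the summed lens, pigment epithelium and gliosis marker (reactive glia) lists were also the highest of all 43, at 222426, 1727 and 1166 CPM. Of the 1166 CPM, *Vim* alone gave 1046.5 (median 199 over all libraries). *Serpina3n* was also above its median there, while *Gfap*, *Lcn2*, *Fgf2* and *Edn2* were below theirs. The part of these genes in the *Olfml3* value was not tested.

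No member was called by edgeR in the other 5 comparisons, and the shares of all genes called beside them are those of edgeR. In males at 3 dpl 8 of the 9 genes were lower with SCFA, with a median of -0.36, 1 unadjusted p under 0.05 (10.9% of all genes), no DESeq2 call, and 0.022% of all genes called. In males at 7 dpl the differences were -0.39 to 0.68, 1 unadjusted p was under 0.05 (29.4% of all genes), DESeq2 called none, and 22.2% of all genes were called. *Siglech* had the largest of these (0.68, SE 0.30, edgeR adjusted p = 0.12), from 3.21, 1.92 and 1.92 CPM in controls to the 5 SCFA values given above, which overlapped them. *Siglech* was called (adjusted p = 0.091) without the library that held Y-linked transcripts. In males at 14 dpl 7 of the 9 were lower, with a median of -0.44 and 2 unadjusted p under 0.05 (21.2% of all genes). DESeq2 called 1, and edgeR called 7.13% of all genes. In females at 7 dpl 6 were lower, 1 unadjusted p was under 0.05 (15.8% of all genes), DESeq2 called none, and 0.643% of all genes were called. Without the library that held Y-linked transcripts 2 of the 9 were lower in females at 7 dpl, the median moved from -0.18 to 0.11, and 0% of all genes were called. In females at 14 dpl 4 were lower, no unadjusted p was under 0.05 (2.91% of all genes), DESeq2 called none, and 0% of all genes were called. At this size the 95% intervals of the females at 14 dpl still reached from -1.17 to 0.13 for *Siglech* and from -0.22 to 1.21 for *Gpr34*.

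SCFA and control libraries did not overlap for few members. In males *Olfml3* was lower at 3 dpl (1 of 9, against 3.78% of all genes), *Csf1r* at 7 dpl (1 of 9, against 8.63%), and *Csf1r* and *Siglech* at 14 dpl (2 of 9, against 17.8%). No member was separate in females, where 7.73%, 7.22% and 4.01% of all genes were at 3, 7 and 14 dpl. *Olfml3* in males at 3 dpl was 16.2, 13.1, 12.9 and 15.9 CPM in controls and 11.8, 11.3 and 10.9 CPM with SCFA, but its difference was not called (-0.31, edgeR adjusted p = 0.61).

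Lists around these genes were read in the common SCFA comparison against the 17% of all genes called lower and the 17.7% called higher, and shares near these say nothing particular of a list. Of the 11 genes around the CSF1 receptor, 2 were lower, the ligand *Il34* (-0.47, edgeR adjusted p = 0.00051) and the phosphatase *Inpp5d* (-0.24, adjusted p = 0.043). The other ligand, *Csf1*, did not pass (-0.14, adjusted p = 0.21). Among 8 tested fractalkine and purine genes, 3 were lower and 1 higher, with the ligand *Cx3cl1* at -0.30 (edgeR adjusted p = 0.018) and *Nt5e*, which makes adenosine, at 0.39 (adjusted p = 3.9e-05). Of 20 further microglial genes 5 were lower, including *Trem2* (-0.39) and *Adgrg1* (-0.33), and 1 was higher. Of the 18 macrophage genes 4 were lower and none higher, with *C1qa* at -0.53 (edgeR adjusted p = 0.00097). Of 13 TGF-beta genes 5 were higher and 2 lower, *Tgfbr1* rising by 0.39 (adjusted p = 8.0e-05). Without the library that held Y-linked transcripts, 3 of the 20 microglial genes and 2 of the 18 macrophage genes were lower, against 15.7% of all genes. Without the lens-rich library 6 and 4 were, and 4 rather than 2 of the TGF-beta genes were lower, against 19% of all genes.

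Between the sexes, no member was called in controls at 3, 7 or 14 dpl by edgeR or DESeq2, and none had an unadjusted p under 0.05. Of all genes 0.0495%, 0.0275% and 4.65% were called, and 5.17%, 3.81% and 18.1% had an unadjusted p under 0.05. In SCFA mice at 3 dpl, 2 of the 9 were lower in males than in females, *Csf1r* (-0.77, SE 0.22, edgeR adjusted p = 0.044) and *Olfml3* (-0.73, SE 0.20, adjusted p = 0.041), where 13.6% of all genes were called. *Csf1r* was 9.78, 16.1 and 18.4 CPM in these males, below all 5 females, a separation whose share over all genes was not computed. Without the lens-rich library neither was called (*Csf1r* -0.61, adjusted p = 0.13, and *Olfml3* -0.54, adjusted p = 0.13). *Gpr34* (-0.86, adjusted p = 0.11) was called without the library that held Y-linked transcripts (-0.85, adjusted p = 0.098).

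The SCFA response of males minus that of females was negative for all 9 genes at 3 dpl, from -0.99 (*Csf1r*) to -0.35 (*Siglech*). It was also negative for all 9 at 14 dpl (median -0.43). At 7 dpl it was negative for 2 (median 0.13), and for 6 (median -0.08) without the library that held Y-linked transcripts. None of the 9 was called at any day by edgeR or DESeq2. At 3 dpl 2 had an unadjusted p under 0.05, at 7 dpl 1 and at 14 dpl 1, against 12.6%, 7.32% and 10% of all genes, and 0% of all genes were called at each day. The change in the SCFA response from 3 to 7 dpl and from 7 to 14 dpl was tested as the mean of both sexes. It called no member with either tool, with none at an unadjusted p under 0.05. Opposite responses of males and females can cancel in such a mean. Of all genes 0% and 0.022% were called, and 9.22% and 11.8% had an unadjusted p under 0.05.

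The table's columns fell into 2 runs, the first 31 and the last 12, which the fit took into account. *Aif1* depended on them most. It was 0.791 to 6.63 CPM (median 2.09) in the first run and 0.806 to 1.76 CPM (median 1.37) in the last, a log2 difference of -1.11 (SE 0.22, edgeR adjusted p = 0.00011). *Olfml3* (-0.32, adjusted p = 0.017) and *Siglech* (-0.37, adjusted p = 0.073) were also lower in the last run, so 3 of 9 were called against 52% of all genes. The other 6 ranged from -0.25 to 0.11. What the runs stand for is not stated, and 5 of the 12 groups had no library in the last run.

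**Figure D4:**
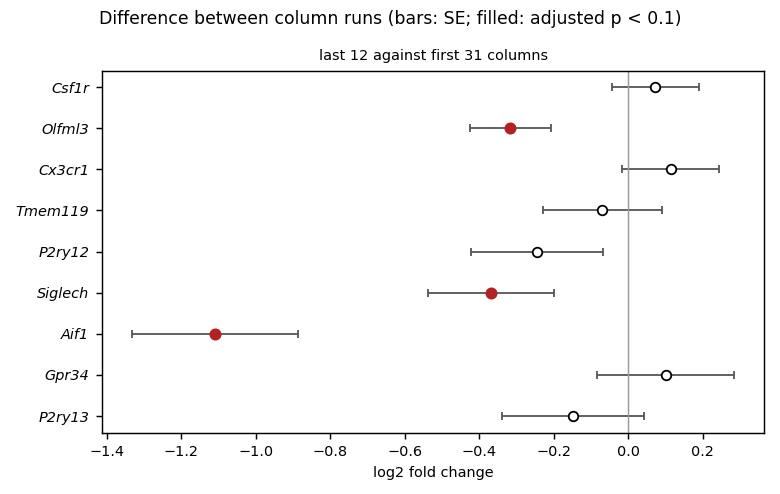
Log2 fold change of each gene between the last 12 and the first 31 columns of the table, with SE; filled points have an edgeR adjusted p under 0.1. *Aif1* (-1.11) lies farthest from 0, with *Olfml3* and *Siglech* also filled.

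Members varied together to different degrees. Over the 43 libraries, on log2(CPM + 1) with the run difference removed, Pearson's r with the mean of the other 8 was 0.72 for *Tmem119*, 0.69 for *Olfml3* and *Cx3cr1*, and 0.64 for *Csf1r*. It was lowest for *Aif1* (0.45) and *P2ry13* (0.39), the latter the gene with the fewest counts. These values share libraries, depth and groups and are given as a description. Among 14926 other genes, the 10 whose levels ran most like the mean of the members were *Ctss* (r = 0.85), *Sparc* (0.83), *Plin2* (0.81), *Mpeg1* (0.80), *Crym* (0.80), *Clic1* (0.79), *Tsc22d4* (0.79), *Rhoc* (0.77), *Anxa5* (0.77) and *Cxcl16* (0.77). *Ctss*, a lysosomal protease, and *Mpeg1*, a pore-forming protein, are macrophage genes.

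Some members share ground with other genes, and the counting was not stated to use strand. In GENCODE M21, *P2ry12* (chr3:59216272-59262871, minus strand) and *P2ry13* (chr3:59207892-59210882, minus strand) lie inside *Med12l* on the opposite strand, with 9 shared exon bases for *P2ry12* and 0 for *P2ry13*. *Gpr34* (chrX:13632089-13640858) lies inside *Cask*, with no exon bases shared. *Csf1r*, on chromosome 18, shares 873 exon bases with *Hmgxb3* on the opposite strand, whose median level was 21.7 CPM. Without strand, reads from those bases cannot be assigned to either gene. Over the 43 libraries Pearson's r between *Csf1r* and *Hmgxb3* was 0.13.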

How the data were processed

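Retinal RNA, each sample a pool of 2 retinas, was sequenced in 43 libraries. The authors deposited raw counts of reads per gene, without normalization. The labels name the mm10 build, and the aligner, counter, annotation and strand setting were not given in the sources used here. Genes were named and located by GENCODE M21 on GRCm38. The study's methods name DESeq2, and groups came from the library names in the labels. Whether replicate numbers mark separate batches is not stated.

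Genes with low counts were removed by filterByExpr, and library sizes were scaled by TMM. Levels are CPM on that scale. One quasi-likelihood model of edgeR 4.0.16 (R 4.3.3) was fitted over all libraries with the 12 groups and the run of columns, and p-values were adjusted by Benjamini-Hochberg over 18197 genes. A gene was called at an adjusted p under 0.1, the study's threshold, with no minimum fold. Shares of all genes called are those of edgeR, also where a DESeq2 result is named. SE is the log2 fold change divided by the square root of F. Intervals are 1.96 SE to either side. DESeq2 1.42.0, other scalings and filters, the replicate block and the omission of each library were alternatives. In simulated data 100 genes were changed by 1.5-fold and 100 by 2-fold. The fit recovered 68% and 93% of them for 14 against 3 dpl (17910 genes). It recovered 79% and 92% for the common SCFA effect (17910 genes), and 29% and 61% for SCFA in males at 7 dpl (17906 genes). The changed genes had median mean counts of 141 to 487, the members medians of 20 to 331 counts. The simulation held no run difference, so these rates need not hold for the members.

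The members and gene lists were chosen with earlier results of these data known. Named genes are the members, up to 4 genes per list with the smallest adjusted p, genes overlapping a member, and the 10 genes most like the members' mean. Not every gene of the lists is reported. Replicate numbers did not pair the libraries. P-values measure the spread between pools of 2 retinas. A floor of 3 counts equals 0.134 to 0.245 CPM, was used in no test and does not bound counting error. At the members' median counts, counting error was from 5.50% (*Csf1r*) to 22.4% (*P2ry13*) of the level.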

Additional observations from a re-analysis of the deposited data

Results flagged for a closer look

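*Gpr34* in female SCFA 14 dpl replicate 1 was 2.45 CPM, set apart from the other 3 libraries of its group, of which the nearest was 1.42 CPM. It was the only 1 of 45 sets of 4 or 5 libraries in which the highest or lowest library stood this far from the rest, and chance gives about 1 in 20 such cases.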

How the results depend on the processing

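The counts of members called in the 18 comparisons were refitted under each alternative, and no difference of a called member changed sign. *Csf1r* in the common SCFA effect was called under every alternative but that of an absolute log2 fold change over 1 as well, which left 0 members there, 0 for 14 against 3 dpl and 0 for SCFA females at 3 dpl. SCFA females at 3 dpl also had 0 at an adjusted p under 0.05, with no run block, without both doubted libraries and with lens crystallins left out (the last 2 chosen after seeing the data). SCFA males at 7 dpl had 1 (*Siglech*) in the first run of columns, with at least 10 counts in every library, without both doubted libraries, in the compared groups only and with the replicate block. SCFA males at 14 dpl had 1 (*Csf1r*) in the libraries that the study lists, with DESeq2, with no filter, with at least 10 counts, without both doubted libraries, in the compared groups only and with the replicate block. For 14 against 3 dpl there were 0 with no run block and 0 in the first run, 2 with DESeq2, 2 in the compared groups only and 3 with no filter. With no filter on low counts there was also 1 for SCFA females at 7 dpl, 1 for 7 against 3 dpl, and 2 for the sex difference in the SCFA response at 3 dpl. The compared groups alone gave 1 for control males against females at 14 dpl. Median CPM of the 9 genes moved by less than the spread within groups under both other scalings. The share of all genes called under each alternative, or without each library, is not given in this section. These counts therefore cannot be read as particular to the members. The cause of these changes was not tested.

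Leaving out each library in turn gave 0 to 1 members for SCFA males at 7 dpl, 0 to 2 at 14 dpl, 0 to 2 for SCFA females at 3 dpl, 0 to 1 at 7 dpl and 1 to 3 for 14 against 3 dpl, and did not move the other counts. Without male SCFA 3 dpl replicate 1, 3 members were called for 14 against 3 dpl (*Olfml3*, *Csf1r* and *Gpr34*).

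Same-numbered replicates correlated over 0.1 in 5 of 18 pairs (-0.17 to 0.16), so the numbers do not pair the libraries. With the replicate block, the members called became 1 for SCFA males at 7 dpl, 1 at 14 dpl and 1 for the sex difference in the SCFA response at 3 dpl, and *Csf1r* in the common effect was -0.30. The spread between libraries exceeded counting error for every member, which had a median of 20 to 331 counts.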

Other observations

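Lists of other retinal cells were also read in the common SCFA comparison, for which 34.7% of all genes were called by edgeR. Of 6 Müller glia genes 3 were higher and none lower, of 8 rod genes 2 were higher and 1 lower, and of 6 lens genes 5 were higher. None of 7 pigment epithelium and choroid genes, 6 oligodendrocyte genes or 5 endothelial genes was called. From 3 to 14 dpl, 3 of 6 gliosis markers and 3 of 6 lens genes were lower. No gene of the Müller glia, endothelial or pigment epithelium lists was called. Which cells the gliosis markers came from was not tested. The lens-rich SCFA library of 3 dpl held 222426 summed lens CPM against at most 644 elsewhere. Without it no lens gene was called by edgeR in either comparison (0 of 6 in each). In the same setting 1 pigment epithelium gene was lower with SCFA, against 19% of all genes. Without the library that held Y-linked transcripts, 1 endothelial gene was higher with SCFA, against 16.1% of all genes. In that setting 4 gliosis markers were lower from 3 to 14 dpl, against 1.77% of all genes.

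The share of *Csf1r* in the summed CPM of the 9 genes was 37.6 to 41.6% in control males at 14 dpl and 29.4 to 37.0% in SCFA males, so that these groups did not overlap. In the other 5 comparisons of sex and day they overlapped. Median shares in controls and with SCFA were 36.4 and 33.2% in males at 3 dpl, 35.4 and 34.7% in males at 7 dpl, 34.0 and 31.9% in females at 7 dpl, and 34.4 and 33.4% in females at 14 dpl. In females at 3 dpl the median was higher with SCFA, at 37.1 against 32.3%. These shares were not tested.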
